A study of Mus musculus with 12 samples.

Results

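The genes of MHC class I peptide loading and of the immunoproteasome followed here in mouse macrophages sorted from muscle after ischemic injury were *B2m*, *Tap1*, *Tap2*, *Tapbp*, *Psmb8*, *Psmb9*, *Psmb10*, *Psme1*, *Psme2* and *Nlrc5*. They were chosen by name, as the 10 of 55414 gene IDs whose symbols match that list. All 10 passed the filter on low counts, and the smallest count of any of them in a library was 102 (*Psmb9*). All animals were C57BL6J wild type males of 8 to 12 weeks, and hindlimb ischemia was induced in every one by ligating and excising the femoral artery. RNA was sequenced in 12 libraries, 3 for each of the 4 days sampled, which were 1, 2, 4 and 7 dpi (days post injury), and no uninjured group is part of the comparison, so each day is set against an earlier day. The cells came from digested calf muscle, and the sorted population is described as CD45+CD11b+F4/80+CD64+ macrophages of the tissue. No source states whether a library holds 1 mouse or a pool, so the P values reflect variation among libraries only, and that may be technical. In bulk RNA, fewer cells that express a gene and less RNA per cell cannot be told apart.

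Nearly all nucleated cells show fragments of their own proteins on MHC class I, a complex of a heavy chain with beta-2-microglobulin, where CD8+ T cells can read them. The fragments are cut in the cytosol by the proteasome. In immune cells and under interferon, the 3 catalytic subunits of its 20S core can be exchanged for the immunosubunits encoded by *Psmb8*, *Psmb9* and *Psmb10*, and the PA28 ring encoded by *Psme1* and *Psme2* can cap the core. The TAP transporter (*Tap1* and *Tap2*) carries peptides into the endoplasmic reticulum, where tapasin (*Tapbp*) holds the empty class I molecule beside it. *Nlrc5* encodes the transactivator of class I promoters, which acts at an element of X and Y boxes, and interferon-responsive sites lie in many of these promoters.

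Total counts were 19528316 to 33599472 per library, of which 1 unnamed gene (ENSMUSG00000119584) took 14.84% to 55.66%, leaving 8992759 to 18581365 counts. Its share differed by day, at 52.94% to 55.66% at 1 dpi, 40.32% to 46.04% at 2 dpi, 45% to 49.7% at 4 dpi and 14.84% to 30.14% at 7 dpi. The genes that define the sort were present in every library, but their levels changed with the day. *Adgre1*, which encodes F4/80, averaged 668 CPM (library-scaled counts) at 7 dpi and 285 CPM at 1 dpi (log2 fold change, log2FC, 1.23, adjusted P = 0.000119, edgeR). *Itgam*, which encodes CD11b, averaged 35.8 CPM at 7 dpi and 180 CPM at 1 dpi (-2.33, adjusted P = 1.71e-07) and was also lower at 2 dpi than at 1 dpi (-1.02) and at 4 dpi than at 2 dpi (-1.05). *Fcgr1*, which encodes CD64, averaged 140 CPM at 7 dpi and 433 CPM at 1 dpi (-1.63, adjusted P = 1.7e-05). Summed monocyte markers (8 genes) were 240 to 710.1 CPM at 7 dpi and 4196 to 5903 CPM at 1 dpi, and recruited macrophages can express several of these genes themselves. The 7 dpi replicate 2 library had the highest mitochondrial share, 18.9% of the counts outside the unnamed gene, against 4.773% to 12.53% in the other 11 libraries. Values without this library are given beside some of the results at 7 dpi.

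Of the genes, 4 sit side by side on chromosome 17, in the order *Psmb9*, *Tap1*, *Psmb8*, *Tap2* in RefSeq (GRCm38.p6), between the class II genes *H2-DMb1* and *H2-Ob*. *Psme1* and *Psme2* lie on chromosome 14 with only *Emc9* between them. *Psmb9* and *Tap1* are read in opposite directions from starts that are 225 bases apart, so they share a promoter region. That region is printed because both genes were among the 5 with the largest increase described below, and the promoter of *B2m* is printed because it holds the most kinds of motif. Sequences are the plus strand of GRCm38.p6 from RefSeq. In the first, at chr17:34187331-34187555, the start of *Psmb9* lies before the first base and that of *Tap1* after the last one. The capitals mark the letters of a Y box (CCAAT, the complement of ATTGG) and of the X2 core TGACG. They lie 222 and 86 bases before the start of *Tap1*, farther apart than in *B2m*, where they lie 53 and 78 bases before its start.
Tap1 and Psmb9: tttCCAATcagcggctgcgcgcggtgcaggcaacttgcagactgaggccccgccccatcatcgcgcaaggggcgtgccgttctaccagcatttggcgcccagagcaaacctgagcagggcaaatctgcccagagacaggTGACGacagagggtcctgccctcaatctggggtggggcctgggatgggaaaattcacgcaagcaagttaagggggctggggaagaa
In the second, at chr2:122147437-122147686, the last base is the one before the start of *B2m*, and the capitals mark, from left to right, an interferon-stimulated response element (ISRE), an NF-kB motif, the X2 core and a Y box.
B2m: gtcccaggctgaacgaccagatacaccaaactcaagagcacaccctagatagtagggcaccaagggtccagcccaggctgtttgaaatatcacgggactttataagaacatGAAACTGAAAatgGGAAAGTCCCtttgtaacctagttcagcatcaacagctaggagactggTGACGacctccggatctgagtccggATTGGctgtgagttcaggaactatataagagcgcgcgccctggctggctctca

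Promoter windows from 250 bases before to 50 after the start were available for 8 of the 10 genes, and *Tap2* and *Nlrc5* had none. Letters were searched on both strands. TGACG was found in 4 of the 8 windows (*B2m*, *Tap1*, *Psmb9* and *Psme2*), against 20.8% of 32851 mouse promoter windows, and *Tap1* and *Psmb9* share 1 match. ATTGG was also found in 4 (*B2m*, *Tap1*, *Psmb9* and *Tapbp*), against 37.4% of windows, and *Tap1* and *Psmb9* share 1 match here too. The ISRE letters GAAANNGAAA occurred 139 bases before the start of *B2m* and 9 bases into *Psme1*, against 3.44% of windows. The letters TTCNNNGAA of a gamma-activated site (GAS) occurred once, as TTCCCAGAA 97 bases before the start of *Psmb8*, against 8.3% of windows. An NF-kB motif occurred in *B2m* alone among the 8, against 8.46% of windows. These are matches of letters, and binding was not measured here.

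Between 2 and 4 dpi both the loading genes and the immunoproteasome genes divided into some that rose and some that did not pass. *B2m*, *Tap1*, *Tapbp*, *Psmb9* and *Nlrc5* were each higher by more than 2-fold at 4 dpi than at 2 dpi (log2FC of 1.12 to 1.53), and *Psmb8* was higher by a smaller step (0.48). *Tap2*, *Psmb10*, *Psme1* and *Psme2* did not pass the test, with log2FC of 0.22, 0.22, 0.32 and 0.01. Thus 6 of 10 genes were higher at an adjusted P under 0.05 by edgeR's quasi-likelihood test, against 10.8% of the 14310 genes tested. With a log2FC above 1 as well, 5 of 10 were differentially expressed genes (DEGs), against 8.02%. No member was lower, against 8.7% of all genes, and none was lower at an unadjusted P under 0.05 in edgeR or at an adjusted P under 0.05 in DESeq2 or limma-voom, with 0 in each. The median log2FC of the 10 was 0.80, beside 0.04 over all genes. In 8 of the 10 genes every library of 4 dpi was above every library of 2 dpi, against 22.3% of all genes. The number of DEGs was 5 whichever of the 12 libraries was left out. The mitochondrial share moved with this step, at 6.265%, 12.53% and 11.39% in the libraries of 4 dpi, against 5.359%, 5.159% and 4.773% in those of 2 dpi, which were the lowest of all 12. Even the lowest share at 4 dpi, 6.265% in replicate 1, was above all those of 2 dpi. The part of the mitochondrial share in this step was not tested.

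Before and after this step few of the genes passed the test. At 2 dpi against 1 dpi, *Tap1* alone was called lower (5.6% of all genes were) and none was called higher (6.89% of all genes), with 0 higher at an unadjusted P under 0.05 by edgeR and 0 by DESeq2 and limma-voom. The median log2FC was -0.24, beside 0.01 over all genes. In 6 of 10 genes all libraries of 2 dpi lay below all of 1 dpi, against 18.5% of genes. At 7 dpi against 4 dpi, *Psmb8* alone was lower (14.6% of all genes) and none was higher (10.9%), again with 0 higher at an unadjusted P under 0.05 by edgeR and 0 by DESeq2 and limma-voom. The median was -0.34, beside -0.03 over all genes. In 3 of 10 genes all libraries of 7 dpi lay below all of 4 dpi, against 20.7% of genes. Over the whole course 7 of 10 genes differed between days in a joint test, against 61.5% of all genes, so a difference between some pair of days was common in this experiment. *Psmb10*, *Psme1* and *Tap2* did not pass it (adjusted P = 0.104, 0.28 and 0.452, edgeR).

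**Figure D1:**
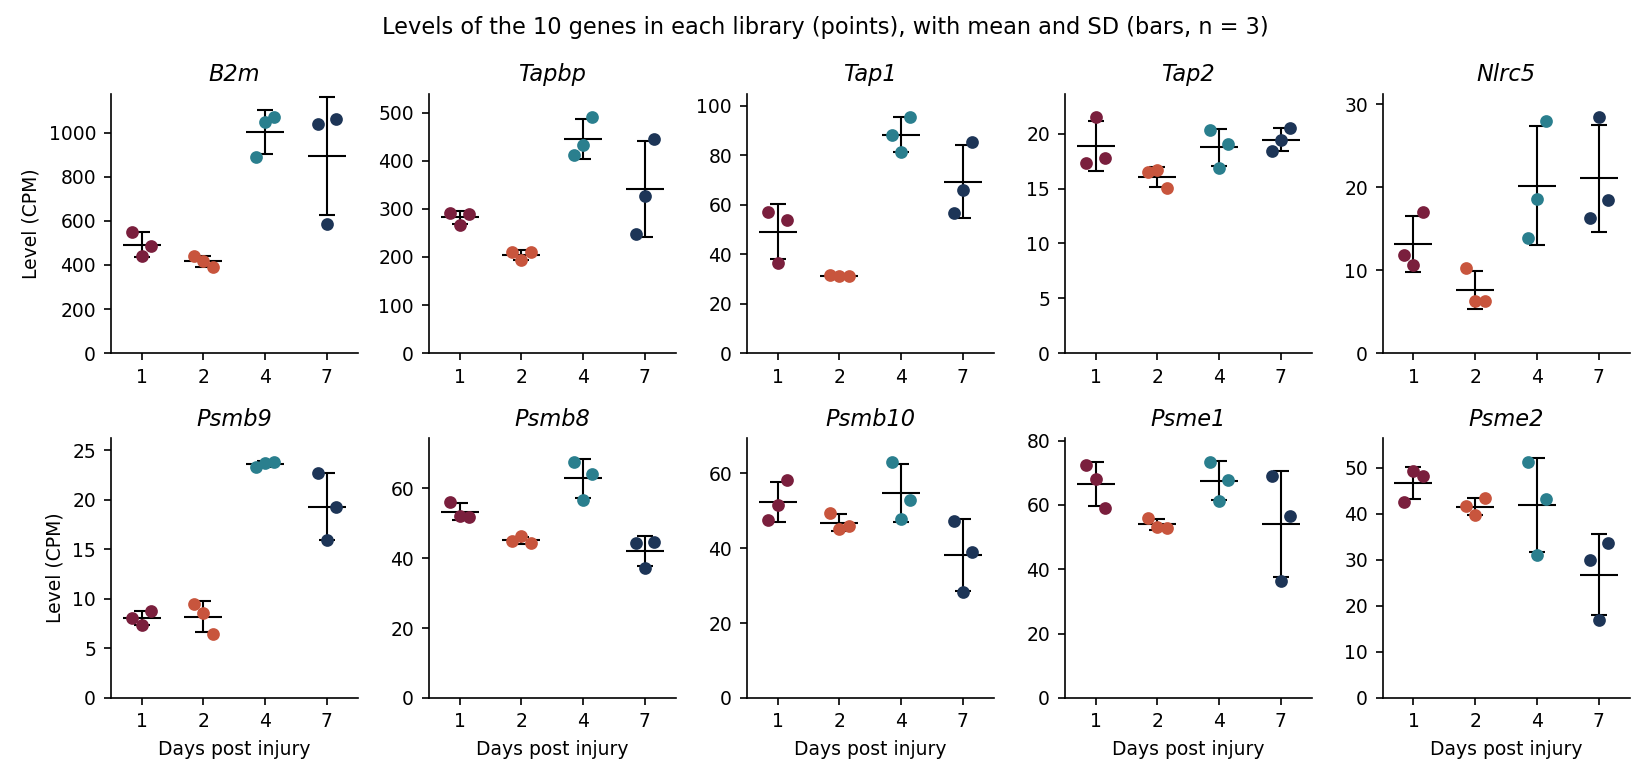
Levels of the 10 genes in CPM (y axis, from 0, own scale per gene) against days post injury (x axis); points are single libraries and bars the mean and SD of 3. *B2m*, *Tap1*, *Tapbp*, *Psmb9* and *Nlrc5* step up between 2 and 4 dpi, whereas *Psme2* has its lowest library, 16.82 CPM, at 7 dpi.

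*B2m* encodes the light chain that every class I molecule needs. Its libraries held 549.9, 440 and 487.3 CPM at 1 dpi, 441.7, 417.8 and 391.4 at 2 dpi, 889.7, 1049 and 1070 at 4 dpi, and 1038, 586 and 1061 at 7 dpi. All 4 dpi libraries were above all earlier ones, and at 7 dpi replicate 2 fell well below the other 2 libraries while staying above all those of 1 and 2 dpi. At 4 dpi against 2 dpi its log2FC was 1.27 ± 0.22 (SE, adjusted P = 0.000986, edgeR), and at 7 dpi against 1 dpi 0.86 ± 0.22 (adjusted P = 0.00439). The difference between 7 and 4 dpi was -0.16 ± 0.22 (adjusted P = 0.607), and 0.08 without 7 dpi replicate 2. Per kb of exonic length *B2m* was the highest of the 10 on every day, with means of 572.6, 484.8, 1166 and 1040 CPM per kb at 1, 2, 4 and 7 dpi.

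*Tap1* encodes one chain of the peptide transporter. It was at 57.05, 36.4 and 53.85 CPM at 1 dpi, 31.62, 31.06 and 31.32 at 2 dpi, 88.11, 81.42 and 95.4 at 4 dpi, and 56.57, 65.77 and 85.36 at 7 dpi. The 2 dpi libraries were the lowest and within 1 CPM of each other, and those of 4 and 7 dpi overlapped. *Tap1* was lower at 2 dpi than at 1 dpi (log2FC -0.65 ± 0.20, adjusted P = 0.0418, edgeR) and higher at 4 dpi than at 2 dpi (1.495 ± 0.20, adjusted P = 0.000105). The call at 2 dpi was lost in 7 of 23 alternative analyses, namely limma-voom and those without 1 dpi replicate 1 or 3, any 1 of the 2 dpi libraries or 4 dpi replicate 3 (adjusted P up to 0.174). The smaller difference between 7 and 1 dpi (0.50 ± 0.20, adjusted P = 0.0468) was lost in 9 of 23, namely without a filter, in the 6 libraries compared, and without 1 dpi replicate 2, 2 dpi replicate 1 or 2, any 1 of the 4 dpi libraries or 7 dpi replicate 3 (adjusted P up to 0.172).

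*Tap2*, the other chain of the transporter, stayed close to one level. It held 17.29, 21.51 and 17.81 CPM at 1 dpi, 16.49, 16.67 and 15.05 at 2 dpi, 20.3, 16.91 and 19.05 at 4 dpi, and 18.38, 19.44 and 20.49 at 7 dpi. Although the 2 dpi libraries were the lowest of the 12, the step to 4 dpi was 0.22 ± 0.17 (adjusted P = 0.389, edgeR). The log2 ratio of *Tap1* to *Tap2* per kb, a pair chosen after its values were seen, was 1.19, 0.23 and 1.06 at 1 dpi, 0.41, 0.36 and 0.52 at 2 dpi, 1.58, 1.73 and 1.79 at 4 dpi, and 1.09, 1.22 and 1.52 at 7 dpi. *Tap1* was thus above *Tap2* per kb in every library, and most so at 4 dpi.

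*Tapbp* encodes tapasin, which edits the peptides bound by class I. It held 291.5, 266.4 and 288.6 CPM at 1 dpi, 210, 193.1 and 209.7 at 2 dpi, 410.9, 433 and 490.6 at 4 dpi, and 247.4, 327.7 and 445.8 at 7 dpi. The 3 earlier days did not overlap one another, whereas the 7 dpi libraries spread from below the 1 dpi range into that of 4 dpi. The log2FC was 1.12 ± 0.20 at 4 dpi against 2 dpi (adjusted P = 0.0012, edgeR) and -0.39 ± 0.20 at 7 dpi against 4 dpi (adjusted P = 0.166). The second of these passed without 7 dpi replicate 3 (-0.63, adjusted P = 0.0168) and in no other alternative. Over the 23 alternatives it ranged from -0.63 to -0.20. At 2 dpi against 1 dpi *Tapbp* did not pass (-0.47 ± 0.20, adjusted P = 0.148). Its order over the 12 libraries was the closest to that of *Tap1*. The Euclidean distance between the z-scored log2 CPM of the pair, which is 0 for identical patterns, was 1.04, the smallest of all pairs of the 10 genes.

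*Nlrc5* was the lowest of the 10 per kb on every day, with means of 1.55, 0.89, 2.38 and 2.48 CPM per kb at 1, 2, 4 and 7 dpi. Its libraries held 11.79, 10.63 and 16.98 CPM at 1 dpi, 10.22, 6.272 and 6.272 at 2 dpi, 13.91, 18.6 and 28.01 at 4 dpi, and 16.33, 28.47 and 18.48 at 7 dpi. All 2 dpi libraries were below all others, and the spread within 4 and 7 dpi was wide. The log2FC was 1.41 ± 0.30 at 4 dpi against 2 dpi (adjusted P = 0.00373, edgeR), kept in all 23 alternatives. At 7 dpi against 1 dpi it was 0.68 ± 0.29 (adjusted P = 0.0654), a difference that passed in 8 of 23 alternatives, among them those without 1 dpi replicate 3 or 7 dpi replicate 1.

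The 3 immunosubunits differed in how far they moved. *Psmb9*, which replaces *Psmb6* in the core, held 8.016, 7.388 and 8.768 CPM at 1 dpi, 9.502, 8.561 and 6.451 at 2 dpi, 23.26, 23.66 and 23.84 at 4 dpi, and 22.7, 15.96 and 19.28 at 7 dpi. The 6 early libraries were all below the 6 later ones, and those of 7 dpi were all below those of 4 dpi, replicate 1 only just. Its log2FC of 1.53 ± 0.20 at 4 dpi against 2 dpi was the largest of the 10 (adjusted P = 8.92e-05, edgeR). *Psmb9* was also the only DEG of the 10 at 7 dpi against 1 dpi (1.26 ± 0.20, adjusted P = 9.92e-05, 19.7% of all genes being DEGs in this direction). Without 7 dpi replicate 2, *B2m* joined it, with a log2FC of 1.12.

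*Psmb8*, which replaces *Psmb5*, rose and fell back by smaller steps. It was at 56.19, 52.04 and 51.68 CPM at 1 dpi, 44.81, 46.34 and 44.44 at 2 dpi, 67.63, 56.6 and 64.23 at 4 dpi, and 44.32, 37.06 and 44.52 at 7 dpi. Every 4 dpi library was above those of all other days, and the 7 dpi libraries were below those of 1 dpi. At 4 dpi against 2 dpi the log2FC was 0.48 ± 0.16 (adjusted P = 0.0428, edgeR). That call was lost in 10 of 23 alternatives (adjusted P up to 0.175), among them those without any 1 of the 2 and 4 dpi libraries or without 1 dpi replicate 2 or 3. At 7 dpi against 4 dpi it was -0.58 ± 0.16 (adjusted P = 0.0143), a call lost only in the fit of the 6 libraries compared (adjusted P = 0.115). Without 7 dpi replicate 2 it was -0.49 (adjusted P = 0.0493).

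*Psmb10*, which replaces *Psmb7*, did not pass in any of the 4 comparisons. It was at 47.47, 51.63 and 58.15 CPM at 1 dpi, 49.5, 45.2 and 45.8 at 2 dpi, 63.12, 47.86 and 52.94 at 4 dpi, and 47.37, 28.28 and 38.89 at 7 dpi. The 7 dpi libraries were all below those of 4 and of 1 dpi, with replicate 2 the lowest of the 12. The log2FC was 0.22 ± 0.19 at 4 dpi against 2 dpi (adjusted P = 0.453, edgeR), -0.52 ± 0.19 at 7 dpi against 4 dpi (adjusted P = 0.0589), and -0.33 for 7 dpi against 4 dpi without 7 dpi replicate 2. It passed at 7 dpi against 4 dpi in limma-voom, with legacy=FALSE in edgeR and without 7 dpi replicate 1.

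Neither PA28 gene passed the test at 4 dpi against 2 dpi. *Psme1* ranged from 58.98 to 72.3 CPM at 1 dpi, 52.97 to 55.89 at 2 dpi, 61.22 to 73.44 at 4 dpi and 36.35 to 68.9 at 7 dpi, with log2FC of 0.32 ± 0.20 at 4 dpi against 2 dpi (adjusted P = 0.289, edgeR) and -0.32 ± 0.20 at 7 dpi against 4 dpi (adjusted P = 0.249), and -0.09 without 7 dpi replicate 2. *Psme2* was at 42.59, 49.25 and 48.13 CPM at 1 dpi, 41.73, 39.62 and 43.33 at 2 dpi, 51.3, 30.99 and 43.29 at 4 dpi, and 29.88, 16.82 and 33.58 at 7 dpi. All 7 dpi libraries of *Psme2* were below all those of 1 and 2 dpi, and it was the only gene of the 10 called lower at 7 dpi than at 1 dpi (log2FC -0.80 ± 0.24, adjusted P = 0.00972, against 23.3% of all genes). This call was lost without 1 dpi replicate 2 (-0.70, adjusted P = 0.0509), and without 7 dpi replicate 2, the lowest library, it was kept at -0.53 (adjusted P = 0.043). At 7 dpi against 4 dpi *Psme2* did not pass in the fit of all 12 libraries, but it did without 4 dpi replicate 2 (-0.84, adjusted P = 0.0241) and without 7 dpi replicate 3 (-0.84, adjusted P = 0.0205), and it gave -0.39 without 7 dpi replicate 2.

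*Psme2* has a near-identical copy, *Psme2b*, so that reads could be divided between them, and its values are uncertain for this reason. *Psme2b* held 10.84, 12.15 and 10.2 CPM at 1 dpi, 10.85, 8.611 and 11.86 at 2 dpi, 13.7, 8.124 and 10.49 at 4 dpi, and 33.12, 17.5 and 19.64 at 7 dpi. It was higher at 7 dpi where *Psme2* was lower, with a log2FC of 1.08 ± 0.26 against 1 dpi (adjusted P = 0.00244, edgeR). With the counts of both added, an analysis chosen after seeing the data, the libraries held 62.98, 34.32 and 53.22 CPM at 7 dpi and 53.44, 61.4 and 58.33 CPM at 1 dpi. The sum gave no call for 7 dpi against 1 dpi (-0.20 ± 0.22, adjusted P = 0.469) or against 4 dpi (-0.07 ± 0.22, adjusted P = 0.843).

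At 7 dpi against 1 dpi, 3 of 10 genes were higher (*B2m*, *Psmb9* and *Tap1*, against 25% of all genes) and *Psme2* was lower. In 2 genes all 7 dpi libraries lay above all of 1 dpi, against 30% of genes, and in 3 (*Psmb8*, *Psmb10* and *Psme2*) all lay below, against 25.9%. The median log2FC was 0.16 for the 10 genes and 0.16 over all genes.

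**Figure D2:**
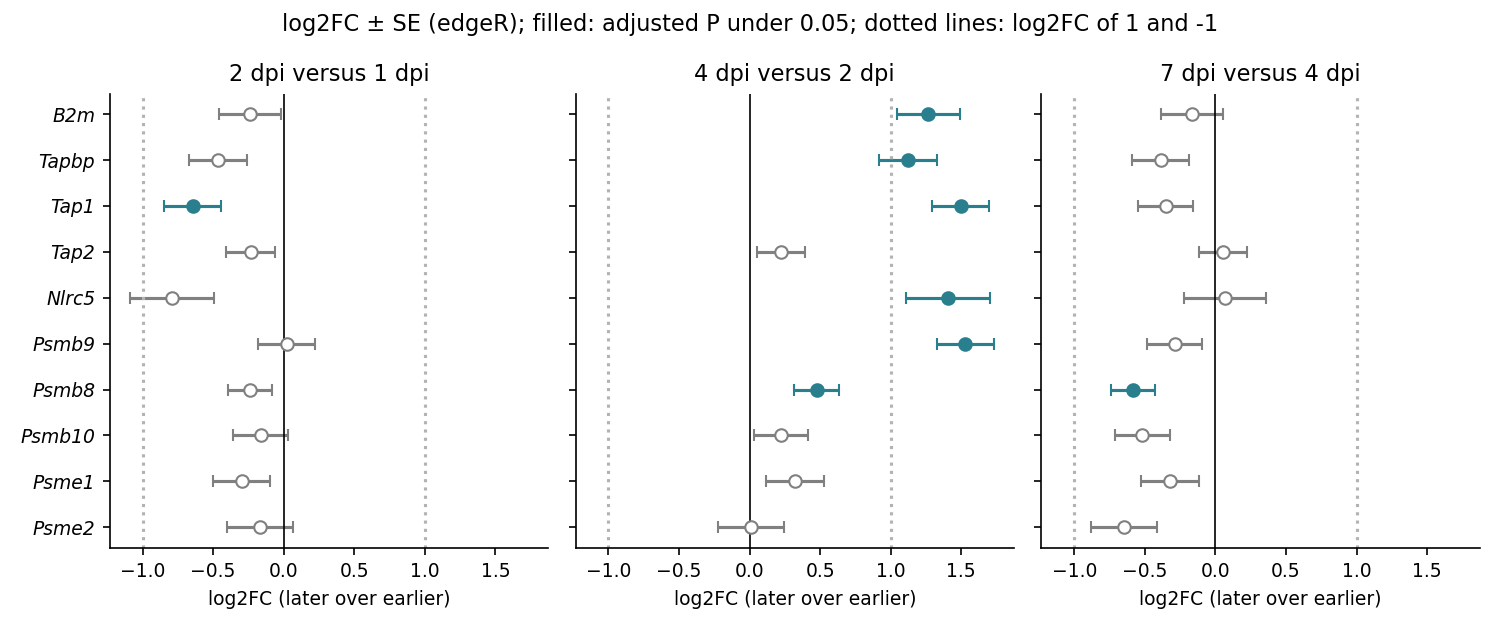
log2FC (x axis, later over earlier day, edgeR) with its SE for each of the 10 genes (y axis) in the 3 steps between successive days; filled points passed at an adjusted P under 0.05. The filled points above 1 are all in the step between 2 and 4 dpi, from *Tapbp* at 1.12 to *Psmb9* at 1.53.

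How the 3 immunosubunits stood against the constitutive subunits they replace was described by log2 ratios of CPM per kb within each library, with no test. The length of a gene is the union of its annotated exons, and the level and sign of a ratio depend on it. Changes of a ratio between days do not. In CPM without length, *Psmb8* was above *Psmb5* at 1 dpi (means of 53.3 and 37.7), although the ratio per kb was negative. The means of the other pairs kept their order in CPM on every day. All 3 ratios were higher in every library of 4 dpi than in every library of 2 dpi. *Psmb8* to *Psmb5* averaged -1.41 ± 0.05, -1.82 ± 0.17, -0.64 ± 0.42 and 0.09 ± 0.47 (SD, n = 3) at 1, 2, 4 and 7 dpi. *Psmb9* to *Psmb6* averaged -4.22 ± 0.13, -4.34 ± 0.42, -2.68 ± 0.31 and -2.02 ± 0.64. *Psmb10* to *Psmb7* averaged 1.42 ± 0.36, 1.24 ± 0.08, 2.06 ± 0.26 and 2.90 ± 0.27. The libraries of 7 and 4 dpi did not overlap for *Psmb8* to *Psmb5* except for 7 dpi replicate 3 (-0.42), or for *Psmb9* to *Psmb6* except for that same library (-2.59), and did not overlap at all for *Psmb10* to *Psmb7*. For the first 2 ratios the highest library was 7 dpi replicate 2 (0.51 and -1.32), which had the highest mitochondrial share. The remaining library, 7 dpi replicate 1, was at 0.18 and -2.13.

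Between 4 and 7 dpi the constitutive subunits fell, and no immunosubunit passed as higher. *Psmb5* was at 10.39, 6.932 and 15.86 CPM at 7 dpi, against 38.99, 21.13 and 21.42 CPM at 4 dpi (log2FC -1.30, adjusted P = 0.00408, edgeR). *Psmb7* was at 10.85, 7.24 and 12.86 CPM at 7 dpi, against 36.99, 21.57 and 22.13 CPM at 4 dpi (-1.38, adjusted P = 0.00144). *Psmb6* was at 50.96, 20.39 and 59.44 CPM at 7 dpi, against 97.39, 70.5 and 66.6 CPM at 4 dpi (-0.84, adjusted P = 0.0396). All 7 dpi libraries of the 3 genes were below all of 4 dpi. Without 7 dpi replicate 2, the lowest library of each, *Psmb5* gave -1.04 (adjusted P = 0.0182) and *Psmb7* -1.17 (adjusted P = 0.00639), and the call of *Psmb6* was lost (-0.49, adjusted P = 0.101). That call was also lost without 7 dpi replicate 1, 4 dpi replicate 1, 2 dpi replicate 1 or 3, or any 1 of the 1 dpi libraries (adjusted P up to 0.141). At 4 dpi against 2 dpi none of the 3 passed in edgeR, with log2FC of -0.64, -0.11 and -0.56 for *Psmb5*, *Psmb6* and *Psmb7*, and *Psmb5* and *Psmb7* had an unadjusted P under 0.05. Without 4 dpi replicate 1, in which all 3 were highest of their day, 2 passed. That library had a mitochondrial share of 6.265%, against 12.53% and 11.39% in the other libraries of 4 dpi, and the part of this difference in the result was not tested.

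**Figure D3:**
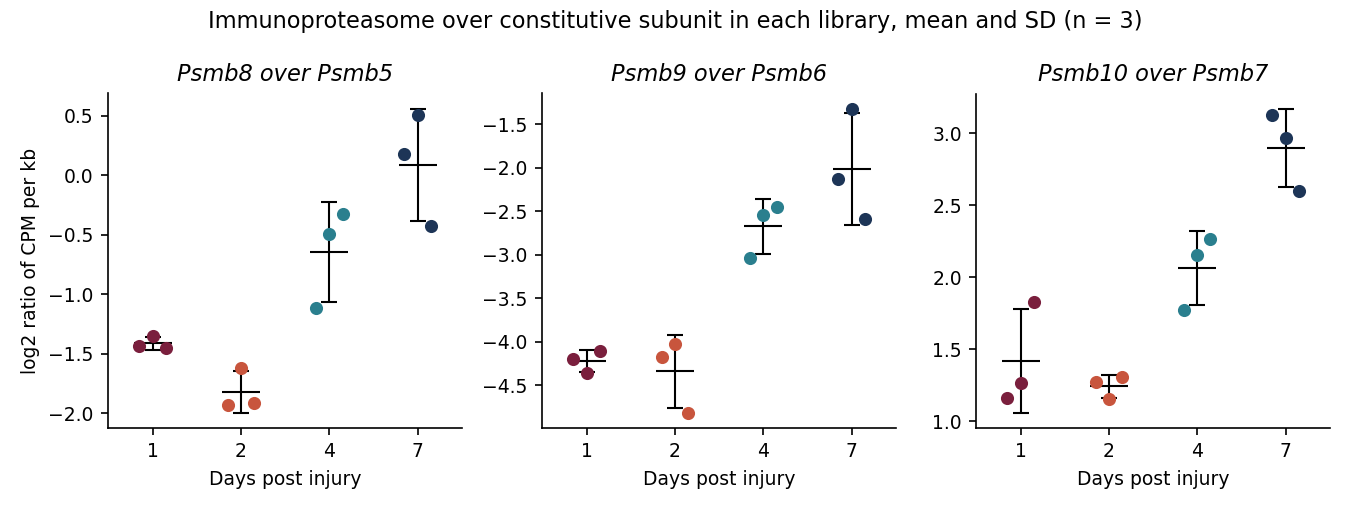
log2 ratio of CPM per kb (y axis) of each immunosubunit over the constitutive subunit it replaces, by days post injury (x axis); points are libraries and bars the mean and SD of 3. Each ratio is higher at 7 dpi than at 1 dpi, with means of 0.09 and -1.41 for *Psmb8* over *Psmb5*.

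The rest of the proteasome did not follow the loading genes. Of the 11 other subunits of the 20S core, 3 were lower at 4 dpi than at 2 dpi and 11 were lower at 7 dpi than at 4 dpi, among them *Psmb4* (log2FC -1.32, adjusted P = 0.00187, edgeR) and *Psmb1* (-1.14, adjusted P = 0.00161). Of the 18 subunits of the 19S regulator, which unfolds ubiquitinated proteins, 12 were lower in the first of these steps and 13 in the second, with *Psmd12* at -1.07 (adjusted P = 0.00335) and *Psmd13* at -1.09 (adjusted P = 0.00309). The median log2FC at 4 dpi against 2 dpi was -0.53 for the core subunits and -0.75 for the regulator, beside 0.80 for the 10 genes. These counts depended on single libraries. For the core at 4 dpi against 2 dpi, leaving out 4 dpi replicate 1 gave 8, leaving out 4 dpi replicate 2 or 3 or any library of 2 dpi gave 0, any library of 1 dpi 1, and 7 dpi replicate 2 5. For the regulator at this step, leaving out 4 dpi replicate 2 or 3 gave 1, 2 dpi replicate 1 or 3 gave 3, and 2 dpi replicate 2 gave 6. For the core at 7 dpi against 4 dpi, leaving out 4 dpi replicate 1 gave 4 and 7 dpi replicate 2 gave 5. For the regulator at that step, leaving out 4 dpi replicate 1 gave 2, 7 dpi replicate 2 gave 3, 7 dpi replicate 1 gave 5, 2 dpi replicate 3 gave 6, 1 dpi replicate 2 or 3 gave 7, 2 dpi replicate 1 gave 8, and RLE scaling gave 7.

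Fold changes at 7 dpi against 4 dpi varied with transcript length over all genes. The median log2FC was -0.19 over the 3572 genes of the shortest exonic length (up to 2.40 kb) and 0.23 over the 3569 longest. *B2m*, *Psmb10*, *Psme1*, *Psme2*, *Psmb5* and *Psmb6* are in the shortest group, and *Nlrc5* in the longest. At 4 dpi against 2 dpi the same medians were 0.05 and -0.03. The part of transcript length in the fold changes of these genes was not tested.

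*Psme3*, which encodes another ring-shaped activator of the core, was lower at 4 dpi than at 2 dpi (58.6 CPM at 4 dpi and 96.4 at 2 dpi, log2FC -0.72, adjusted P = 0.02, edgeR). This call was lost without 4 dpi replicate 2 or 3 or 2 dpi replicate 1 or 3 (adjusted P up to 0.116). *Psme3* was the only one of 7 genes for proteasome assembly and other activators to pass there.

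Most class I heavy chains rose with the light chain. Of 12 heavy chain genes tested, 9 were higher at 4 dpi than at 2 dpi, with a median log2FC of 1.31. None was lower by edgeR, none at an unadjusted P under 0.05, and 1 without 4 dpi replicate 1. *H2-K1*, a classical heavy chain, was at 449.7, 560.3 and 570.6 CPM at 4 dpi, against 265.8, 243.2 and 224 CPM at 2 dpi (log2FC 1.11 ± 0.19, adjusted P = 0.0008). *H2-D1*, the other classical gene of this strain, was at 1172, 1614 and 1358 CPM at 4 dpi, against 804.9, 655.5 and 739.5 CPM at 2 dpi (0.91 ± 0.23, adjusted P = 0.0114), a call lost without 4 dpi replicate 2 (adjusted P = 0.0632) or 2 dpi replicate 2 (adjusted P = 0.0676). Among the non-classical genes, *H2-T23*, which encodes Qa-1, had a log2FC of 1.98 (adjusted P = 5.09e-05) and *H2-Q7* one of 3.03 (adjusted P = 1.29e-05), with a mean of 5.12 CPM at 4 dpi and 0.615 CPM at 2 dpi for *H2-Q7*. Heavy chain genes are near-identical copies in part, so the division of reads among them is uncertain.

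Between 4 and 7 dpi the calls of the heavy chains depended on single libraries. *H2-K1* was higher again at 7 dpi than at 4 dpi, with 858.9, 635 and 867.9 CPM at 7 dpi (log2FC 0.58 ± 0.19, adjusted P = 0.0337, edgeR), while *B2m* gave -0.16. The call of *H2-K1* was kept without 7 dpi replicate 2 (adjusted P = 0.0113) and lost without 7 dpi replicate 1 or 3, any 1 of the 4 dpi libraries, or 2 dpi replicate 1 or 2 (adjusted P up to 0.142). *H2-D1* was at 2619, 1417 and 2071 CPM at 7 dpi and did not pass (0.56 ± 0.23, adjusted P = 0.0851), but passed without 7 dpi replicate 2 (0.78, adjusted P = 0.0164). In all, 3 of 12 heavy chains were higher at 7 dpi than at 4 dpi, and 1 without 4 dpi replicate 1. One of the 3, *H2-M2*, had at most 4 counts in any library before 7 dpi and 54 to 72 counts at 7 dpi. Whether the change between 4 and 7 dpi differs between heavy chains and loading genes was not tested.

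Among 11 partners of loading in the endoplasmic reticulum, *Tapbpl*, which encodes the tapasin-related editor TAPBPR, rose with *Tapbp* between 2 and 4 dpi. At 7 dpi against 4 dpi *Tapbpl* gave a log2FC of 0.25 and *Tapbp* one of -0.39, and neither passed. For the step between 2 and 4 dpi, the values of *Tapbpl* follow. It was at 12.37, 13.67 and 15.76 CPM at 4 dpi, against 5.559, 4.579 and 5.555 CPM at 2 dpi (log2FC 1.41 ± 0.21, adjusted P = 0.000242, edgeR), the only one of the 11 called higher. The chaperone *Hspa5* (-1.01, adjusted P = 0.0114) and the folding sensor *Uggt1* (-0.59, adjusted P = 0.0291) were lower, and neither call held without 4 dpi replicate 2 or without 4 dpi replicate 3 (0 lower in each). Without any 1 of the libraries of 2 dpi, 1 of them was lower. The general chaperones of the loading complex gave -0.58 for *Calr*, -0.37 for *Canx* and -0.39 for *Pdia3*, none of which passed. *Erap1*, the aminopeptidase that trims peptides in the endoplasmic reticulum, averaged 40.2 CPM at 7 dpi and 74.2 CPM at 4 dpi (-0.88 ± 0.17, adjusted P = 0.00224). At that step 6 of the 11 partners were lower, among them the translocon gene *Sec61a1* (-1.74, adjusted P = 0.000423), and 6 were lower without 7 dpi replicate 2 too.

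**Figure D4:**
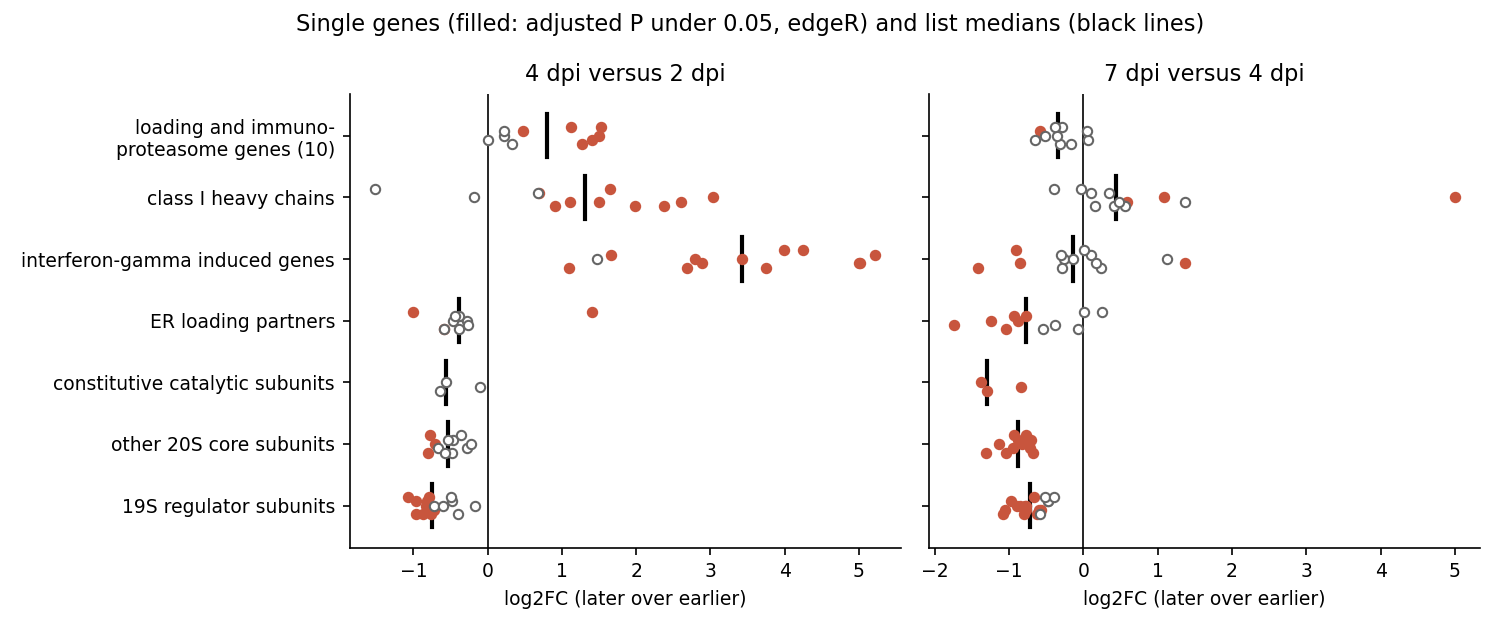
log2FC of single genes (x axis, later over earlier day) by list (y axis) at 4 dpi against 2 dpi (left) and 7 dpi against 4 dpi (right); filled points passed at an adjusted P under 0.05 by edgeR and black lines are list medians. At 4 dpi against 2 dpi the median is 0.80 for the 10 genes and -0.75 for the 19S subunits; the point near 5 on the right is *H2-M2*, which had almost no counts at 4 dpi.

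Genes of interferon signalling and its targets were read beside the 10 genes, since interferon-gamma is the textbook inducer of most of them. *Irf8*, a transcription factor of the macrophage lineage, was at 359.5, 702.8 and 603.7 CPM at 4 dpi, against 232.1, 222 and 228.7 CPM at 2 dpi (log2FC 1.29 ± 0.24, adjusted P = 0.00123, edgeR). *Irf1*, which binds ISREs of class I promoters, was at 40.53, 87.59 and 59.05 CPM at 4 dpi, against 35.61, 37.08 and 34.37 CPM at 2 dpi, and did not pass (0.81 ± 0.33, adjusted P = 0.0938), but passed without 4 dpi replicate 1 (adjusted P = 0.0267) or 1 dpi replicate 1 (adjusted P = 0.0362). *Ifngr1*, a chain of the interferon-gamma receptor, averaged 150 CPM at 4 dpi and 75.3 CPM at 2 dpi (1.00 ± 0.21, adjusted P = 0.0033). In total 3 of 13 signalling genes were higher at 4 dpi and *Ifnar1* was lower. *Stat2* had the smallest P of the 3, with means of 29.3 CPM at 4 dpi and 8.41 CPM at 2 dpi (log2FC 1.80, adjusted P = 0.000188, edgeR). The number higher was 5 without 4 dpi replicate 1 or without a filter, and 7 in the 6 libraries compared. Of 13 genes induced by interferon-gamma, 12 were higher, with a median log2FC of 3.43 that was larger than that of any of the 10 genes. *Gbp2* averaged 67.1 CPM at 4 dpi and 3.5 CPM at 2 dpi (4.25, adjusted P = 2.09e-06).

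Neither interferon was readily seen in the RNA itself. *Ifng* had 0 counts in all 12 libraries, and 3 counts would be 0.081 to 0.236 CPM depending on the library. *Ifnb1* had 18 counts in total. Marker genes of T and NK cells, which make interferon-gamma, were near 0, with 8 counts of *Cd3e*, 18 of *Cd8a* and 30 of *Ncr1* over the 12 libraries, and 12 summed T and NK cell markers at 0 to 0.3692 CPM at 1 dpi, 0.5258 to 0.7466 CPM at 2 dpi, 0.2664 to 1.317 CPM at 4 dpi and 1.386 to 2.699 CPM at 7 dpi. The limit for *Ifng* covers counting error only. The cells were sorted as macrophages, so low counts of T and NK cell markers do not show whether those cells were in the muscle. Interferon made by other cells of the muscle was not measured.

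Of 12 factors that bind class I promoters, among them the RFX and NF-Y subunits, none was higher at 4 dpi than at 2 dpi by edgeR, though 2 were at an unadjusted P under 0.05, and *Atf1* was lower (log2FC -0.70, adjusted P = 0.034). The call of *Atf1* was lost without 4 dpi replicate 2 or 3, any 1 of the 2 dpi libraries or 1 dpi replicate 2 (adjusted P up to 0.159). *Rfx5*, the DNA-binding subunit of RFX, averaged 2.73 CPM at 4 dpi and 1.28 CPM at 2 dpi (1.10 ± 0.47, adjusted P = 0.111). *Ciita*, the class II counterpart of *Nlrc5*, moved much further than *Nlrc5*. It was at 8.076, 36.27 and 24.67 CPM at 4 dpi, against 0.6385, 0.4978 and 0.9676 CPM at 2 dpi (5.00 ± 0.53, adjusted P = 1.29e-05). At 7 dpi *Ciita* was at 69.53, 73.51 and 34.51 CPM, higher than at 4 dpi (1.37 ± 0.41, adjusted P = 0.0244), whereas *Nlrc5* gave 0.07 ± 0.29 (adjusted P = 0.889). This call of *Ciita* was lost without 7 dpi replicate 1 or 2 or without 4 dpi replicate 1 or 3 (adjusted P up to 0.0883), and *Nlrc5* gave -0.20 without 7 dpi replicate 2. Of the list of *Ciita* and 9 class II genes, 7 of 10 were higher at 4 dpi than at 2 dpi and 7 of 10 at 7 dpi than at 4 dpi.

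Marker genes of other cells changed over the same days. At 4 dpi against 2 dpi, summed fibroblast markers (6 genes) were at 131.5 to 255.5 CPM against 27.38 to 43.26 CPM, B cell markers (7 genes) at 68.63 to 200.2 CPM against 15.84 to 21.55 CPM, dendritic cell markers (9 genes) at 11.22 to 16.43 CPM against 6.093 to 8.263 CPM, and monocyte markers at 566.5 to 760.5 CPM against 1639 to 2044 CPM. Within the B cell sum *Ighm* averaged 132 CPM at 4 dpi and 14.7 CPM at 2 dpi (adjusted P = 8.07e-05, edgeR). It was the only 1 of 3 B cell markers tested to be called higher. The lowest log2FC of the 3 was -2.01, which did not pass. Neutrophil markers (12 genes) were at 63.4 to 82.35 CPM against 55.51 to 64.61 CPM, with 5 of the 12 genes at 0 in all libraries of 4 dpi. Within that sum *Csf3r* was higher (means of 55 CPM at 4 dpi and 24.3 CPM at 2 dpi, adjusted P = 0.000879, edgeR), whereas *S100a8* (0.511 and 3.73 CPM, adjusted P = 0.0106), *S100a9* (0 and 1.39 CPM, adjusted P = 0.000232) and *Cxcr2* (0.141 and 2.1 CPM, adjusted P = 0.0077) were lower. At 7 dpi against 1 dpi, fibroblast markers were at 408.9 to 831.2 CPM against 14.38 to 50.6 CPM. Muscle markers (8 genes) were at 47.23 to 115.1 CPM against 7.199 to 17.13 CPM, and B cell markers at 125.2 to 175 CPM against 7.073 to 16.75 CPM. Endothelial markers (6 genes) were at 37.62 to 89.62 CPM against 26.47 to 35.21 CPM. Neutrophil markers were lower, at 43.48 to 52.77 CPM against 131.3 to 203.8 CPM. The part of these cells, and of the mitochondrial share, in the levels of the 10 genes was not tested.

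Over the 12 libraries the 10 genes fell into patterns of their own. After *Tap1* with *Tapbp*, the closest pairs were *B2m* with *Psmb9* (distance 1.10) and *Psmb10* with *Psme2* (1.58), and the pair farthest apart was *Psme2* with *Nlrc5* (5.74). *Tapbp*, *Tap1* and *B2m* lay closest to the mean z-score of the 10 genes (1.91, 1.93 and 2.05), and *Psme2* farthest (3.44). *Tap1* and *Psmb9*, which share the promoter region printed above, were at 1.85 from each other. *B2m* and *Tap1*, which share none, were closer (1.62). Other pairs in that stretch of chromosome 17 lay from 3.288 (*Tap1* with *Tap2*) to 4.195 (*Tap2* with *Psmb8*). The part of the shared region in these patterns was not tested. The constitutive *Psmb5*, *Psmb6* and *Psmb7* were at 4.14, 3.60 and 4.12 from the mean of the 10. These distances describe 12 libraries that share their days, and no test was made of them.

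Of 4771 other genes with mean log2 CPM at or above 4, the 10 whose pattern was closest to that mean were *Acp2* (1.57), *Ms4a6b* (1.58), *1600014C10Rik* (1.62), *Oas1a* (1.71), *Ly6e* (1.73), *Ifi47* (1.74), *Phf11b* (1.77), *Ms4a6c* (1.78), *Ms4a4c* (1.81) and *Arhgap9* (1.84). All were closer to the mean than any of the 10 genes themselves. *Ms4a6b*, *Ms4a6c* and *Ms4a4c* belong to one family of similar membrane proteins, and reads may be divided among its members.

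**Figure D5:**
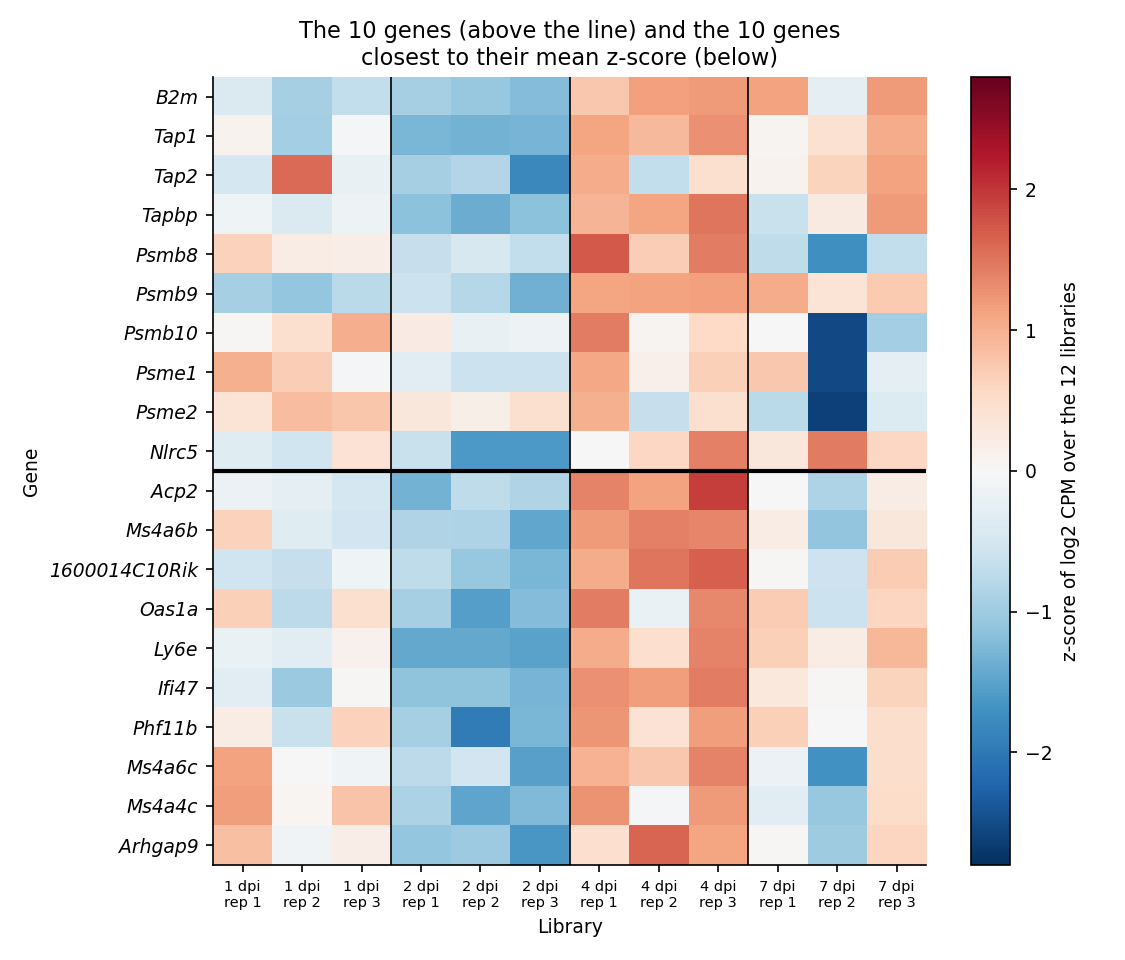
z-score of log2 CPM over the 12 libraries (colour) for the 10 genes (rows above the line) and the 10 genes of nearest pattern (rows below), with libraries in columns by day. Most rows are blue (below their mean) in the 2 dpi columns and red (above it) in the 4 dpi columns, and 7 dpi replicate 2 is deep blue for *Psmb10*, *Psme1* and *Psme2* but red for *Nlrc5*.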

How the data were processed

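Per the submitters' notes and the paper's methods, the authors used Trim Galore 0.6.6 for trimming, HISAT2 2.2.1 for alignment (GRCm39) and featureCounts of Subread 2.0.1 for counting. The deposited values are raw counts per gene from Smart-seq2/3 cDNA, primed with oligo-dT and read without strand. A median of 83.14% of counts from 1 to 20 were even, so both mates of a pair may have been counted. Symbols and exonic lengths (union of exons) came from a GRCm38 annotation by Ensembl ID, so comparisons of genes per kb depend on this choice of length. The members and lists were chosen with earlier results of these data known.

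The analysis ran in edgeR 4.0.16 under R 4.3.3 (filterByExpr, 14310 genes kept, TMM, 1 coefficient per day over 12 libraries, quasi-likelihood F test), and P values were adjusted by Benjamini-Hochberg over all genes tested. A call needed an adjusted P under 0.05, and a DEG also an absolute log2FC above 1. CPM uses TMM library sizes, and log2 CPM a prior count of 2. Library totals limit the precision, and SEs come from the F statistics. Named beside the 10 genes were *H2-K1*, *H2-D1*, *Psmb5*, *Psmb6*, *Psmb7*, *Irf1*, *Irf8* and *Ciita*, up to 3 passed genes of smallest P per list and comparison, and the 10 genes of nearest pattern. *Calr*, *Canx*, *Pdia3*, *Rfx5*, *Ifnar1*, *Psme2b*, the sort genes, the 4 neutrophil genes and the low-count genes were added after their values were seen. A gene of the interferon signalling list is not reported here and was left out of its counts. Scripts were tested on simulated counts.

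Alternatives were no filter, CPM above 1 in 3 libraries, RLE factors, DESeq2 1.42.0, limma-voom (limma 3.58.1), legacy=FALSE, a replicate block, the unnamed gene left out, counts halved, only the 6 libraries compared, each library left out, and, added after seeing the data, *Psme2b* counts added to *Psme2*. No 2 libraries were duplicates (Pearson's r within days 0.943 to 0.977, log2 CPM). A list of 8 cross-presentation genes had 3 higher and 0 lower at 4 dpi against 2 dpi, with 0 lower at an unadjusted P under 0.05. Summed endothelial markers were at 21.04 to 34.07 CPM and muscle markers at 15.94 to 24.45 CPM at 4 dpi, against 27.08 to 48.23 CPM and 6.421 to 10.21 CPM at 2 dpi. CUT&Tag and cytometry were not analysed here.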

Additional observations from a re-analysis of the deposited data

How the results depend on the processing

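Over 40 pairs of a gene and a comparison and 23 alternatives, 849 of 920 fold changes kept their direction and side of the threshold, 29 lost a call, 24 gained one and 18 changed sign, none of which was a call. The number called higher at 4 dpi against 2 dpi stayed at 5 to 6 of 10 when each library was left out. The replicate numbers showed no strong pairing of the libraries (correlations of deviations from -0.133 to 0.128). The shared number was highest in 10 of 18 cases, so a weak pairing is possible. The cause of the shifts that follow was not tested.

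For 2 dpi against 1 dpi, the number lower (1) was 2 without a filter, 0 in limma-voom, 3 in the 6 libraries compared and 0 to 1 with each library left out. For 7 dpi against 4 dpi, the number lower (1) was 2 without a filter and with the replicate block, 3 in limma-voom and with legacy=FALSE, 0 in the 6 libraries compared and 1 to 3 with each library left out. For 7 dpi against 1 dpi, the number lower (1) was 2 in limma-voom and with the replicate block, 0 with *Psme2b* counts added and 0 to 2 with each library left out. The number of DEGs higher there (1) was 1 to 2 with each library left out. The number of genes lowest at 2 dpi (5) was 8 with RLE factors.

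Signs changed as follows. *Psmb9* at 2 dpi against 1 dpi (0.02) was -0.009 with the CPM filter, -0.018 with RLE factors and in DESeq2, -0.001 in limma-voom, -0.006 in the 6 libraries compared and -0.107 to 0.173 with each library left out. *Psme2* at 4 dpi against 2 dpi (0.01) was -0.015 in limma-voom, -0.013 with the replicate block and -0.165 to 0.185 with each library left out. At 7 dpi against 4 dpi, leaving out each library gave -0.3 to 0.078 for *B2m*, -0.038 to 0.093 for *Tap2* and -0.198 to 0.354 for *Nlrc5*. Without a filter the median log2FC of all genes shifted by 0.15 at 7 dpi against 4 dpi and by 0.14 at 7 dpi against 1 dpi, and RLE factors shifted it by 0.09 and 0.08.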
